A study of Mus musculus with 2 samples.

Results

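The RNA of cultured mouse embryonic fibroblasts, connective tissue cells grown out of embryo bodies, was described here from 1 library, 1 of the 2 in the series. Its members are all genes of the deposited table, ranked by their value in the fibroblast column alone. Of 34295 genes, 12561 stood at 1 TPM or more, and the 200 highest were examined by function. TPM is a gene's share of the library's transcripts, corrected for transcript length and scaled to a fixed total. The fibroblasts were wild type cells of C57BL/6J mice, taken from E13.5-E14.4 embryos after removal of head and red tissue. They were expanded in DMEM with 10% serum, sorted as negative for the 3 blood cell surface proteins CD45, CD11b and F4/80, and used at passage 4 to 7. RNA came from 100000 adherent cells after a night in culture, as poly(A) RNA with strand kept and read in pairs of 76 bp. The other library came from 750000 wild type bone marrow derived macrophages of the same strain, grown with 10% serum and 30% conditioned medium. It enters below only where it is named. Each group had 1 library, so the values carry no replicate error and no test was run. The number of reads behind them is unknown, and an interval or a limit of detection could not be computed.

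Fibroblasts build the extracellular matrix, a network of collagens, proteoglycans and glycoproteins that they secrete through the endoplasmic reticulum and crosslink outside the cell. In culture on plastic with serum they also spread, form actin bundles and divide. Cells with strong actin bundles and smooth muscle actin are called myofibroblasts and are known from healing wounds.

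The 6 markers of the label were all high. Sparc, a collagen-binding matrix protein, stood at 3888 TPM, Col1a1 at 2634, Col1a2 at 1833 and Col3a1 at 1318. The transcription factor gene Prrx1 stood at 227 TPM and the receptor gene Pdgfrb at 114. The genes of the 3 proteins used in the sort were low: Itgam at 0.483 TPM, Adgre1 at 0.457 and Ptprc at 0.352. Genes that every cell uses were present at 12 of 12, from Eef1a1 at 8664 TPM to Tbp at 27.7. None of the 6 marker values went against the label. The cells had been sorted as negative for the 3 surface proteins, and genes that every cell uses do not bear on the label.

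The library was spread over many genes. The single highest gene, Eef1a1, held 0.867% of the TPM, the 10 highest 6.47%, the 50 highest 19.6% and the 200 highest 39.9%. A share of 25% lay in 78 genes, 50% in 379 genes, 75% in 1807 and 90% in 4513. The median gene at 1 TPM or more stood at 20.4 TPM. Of all 34295 genes, 12561 stood at 1 TPM or more, 10189 at 5, 1650 at 100 and 160 at 1000 TPM or more. Counts in the gene lists below are to be read beside these. At the edge of the 200 the values fell by small steps: Fstl1 at 833 TPM lay just inside, and the first outside were Ppib at 826 and Rpl10a-ps1 at 823. Of the 200, 129 (64.5%) were also among the 200 highest of the macrophage library.

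**Figure D1:**
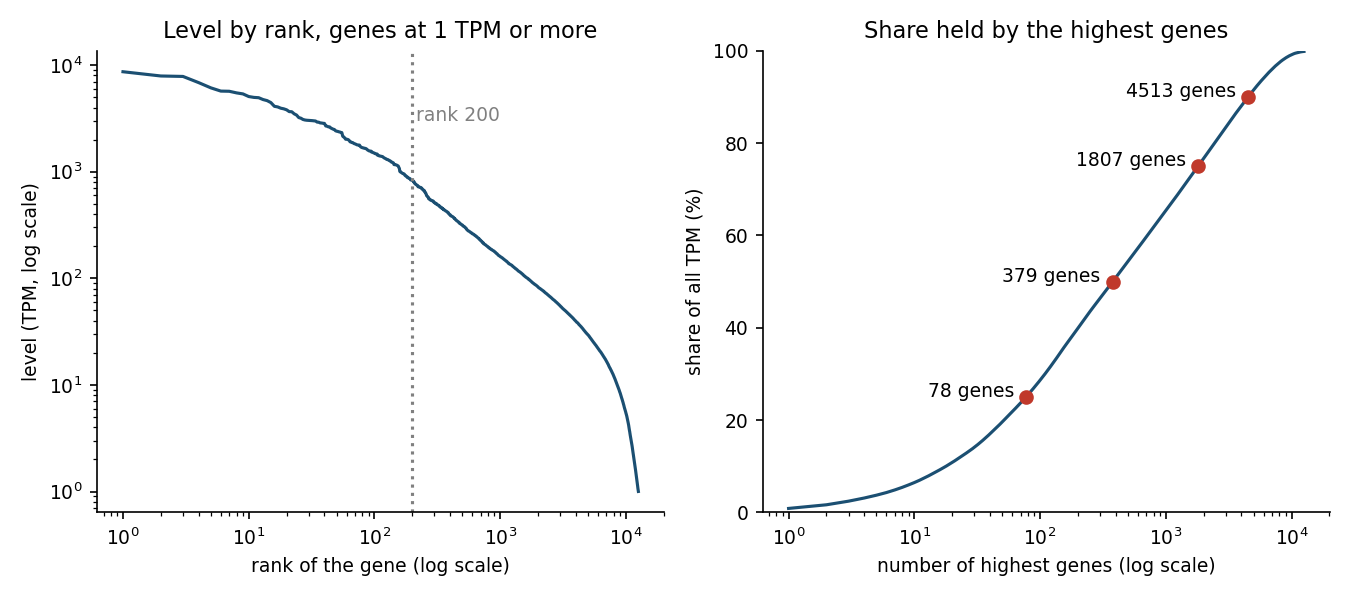
The left panel plots the level of each gene at 1 TPM or more in the fibroblast library (TPM, log scale) against its rank (log scale), with rank 200 marked. The right panel plots the share of all TPM held by the highest genes, where 78, 379, 1807 and 4513 genes mark 25, 50, 75 and 90%.

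By function, genes of cytosolic ribosomal proteins were the largest group among the 200 highest, with 67 genes. All 13 protein genes of the mitochondrial genome were among the 200, and 7 belonged to the class of translation factors and tRNA synthetases. Matrix glycoproteins and proteoglycans gave 9 genes, contractile proteins 9, non-muscle actin and its partners 7, S100 proteins, annexins and galectins 7, and matrix crosslinking and processing enzymes 4. Collagens, growth factor binding proteins and secreted inhibitors gave 3 each. Grouped by where the protein goes, 97 were cytosolic, 23 secreted, 21 cytoskeletal, 16 mitochondrial, 7 of the secretory pathway, 6 of the cell surface, 4 lysosomal and 2 nuclear. No gene for a sequence-specific transcription factor was among the 200. The remaining 24 were pseudogenes and unnamed gene models.

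Among the 30 highest, Eef1a1, the elongation factor that brings aminoacyl-tRNA to the ribosome, came first. After it, mt-Co3 and mt-Atp8 came Rplp1 at 6846 TPM, a protein of the ribosomal stalk. S100a6, a small calcium-binding protein, followed at 6115 TPM and Vim, the intermediate filament of mesenchymal cells, at 5487. Thbs1 (4977 TPM), Mgp (4943), Sparc and Spp1 (3031) were the secreted products among the 30. Thbs1 is thrombospondin, which binds matrix and latent TGF-beta, and Mgp is an inhibitor of calcification. Spp1 is osteopontin, a glycoprotein bound by integrins. Ftl1, a ferritin subunit that stores iron, stood at 4451 TPM, Ppia at 4106, the galectin gene Lgals1 at 4051 and Tmsb4x, which binds actin monomers, at 3401. S100a4, used as a fibroblast marker, stood at 3650 TPM. S100a11, below the 30 highest, stood at 2997 TPM. S100a4 and S100a6 both lie within chr3:90603771-90624181 (GRCm38), a stretch of 20.4 kb.

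Ribosomal protein genes held 12.7% of the TPM, more than any other class. Of 87 genes in the class, 85 stood at 1 TPM or more and 81 at 100 TPM or more, while Rpl10l and Rpl3l, copies used in few tissues, were listed at 0. Most of the proteins are needed in equal numbers in the ribosome, but the rows were uneven. The middle of the class lay between 879 TPM at the lower quartile and 1810 at the upper, with Rplp1, Rpl41 (4643 TPM) and Rps2 (3175) at the top. At the lower end stood Rps12 at 262 TPM, Rpl27 at 138, Rpl12 at 69.0 and Rpl5 at 38.5.

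These low rows had a counterpart in gene models elsewhere. Among pseudogenes and unnamed models at 5 TPM or more, 303 in all, 252 had a transcript in GENCODE M21. Of these, 155 matched a named gene over at least 80% of their length at 95% identity or more, and for 35 of these models the named gene was a ribosomal protein gene. Of the 24 models among the 200 highest, 21 matched in this way, 17 of them a ribosomal protein gene. Gm15500, on chr7:114705217-114706235, stood at 1390 TPM against 38.5 for Rpl5 on chr5:107900502-107909005. Gm10275, on chr10:29698746-29699380, stood at 2146 TPM against 69.0 for Rpl12 on chr2:32961559-32965345. Rps12-ps3 stood at 2869 TPM against 262 for Rps12, and Gm7536 at 3091 TPM against 493 for Rpl27a. The models stood above the ribosomal gene in 15 of the 35 cases.

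Reads of this length from the coding sequence of Rpl5, Rpl12 or Sec61g cannot be told by their letters from reads of the matching model. Every 76-base window of the coding sequence of Rpl5 and of Rpl12 occurs letter for letter in its model, as does every such window of Sec61g in Gm10177. One read-length stretch of each is given, 5′ to 3′, from the middle of the coding sequence and in lower case throughout, because the named gene and the model do not differ in it.
Rpl5 and Gm15500: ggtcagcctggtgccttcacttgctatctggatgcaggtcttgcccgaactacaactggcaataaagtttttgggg
Rpl12 and Gm10275: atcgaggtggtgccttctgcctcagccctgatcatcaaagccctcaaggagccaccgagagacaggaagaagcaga
Sec61g and Gm10177: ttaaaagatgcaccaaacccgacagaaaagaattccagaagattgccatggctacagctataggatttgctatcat
Over the 155 close models, the median share of 76-base windows found in the named gene was 99.5%, and 74 models had no window of their own. Some close models, such as Gm20716 with Adnp and Gm45140 with Rab43, overlap the named gene at its own locus and are not copies elsewhere. Gm12671 and Gm10359, both matching the Gapdh transcript over their whole length, stood at 455 TPM each. The levels of the named genes and of these models are therefore uncertain one by one, and their sum was read beside them. TPM is corrected for transcript length, so the sum is only approximate where model and gene differ in length. How reads were shared between them was not tested. Adding the models raised the ribosomal class from 12.7% to 16.0% of the TPM. On the summed values the lower quartile of the class was 1399 TPM and the upper 2369, and 5 genes in place of 12 stood under 500 TPM. The coefficient of variation across the genes was 69.2% on their own rows and 51.4% on the sums. Rpl5 with its model came to 1429 TPM.

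**Figure D2:**
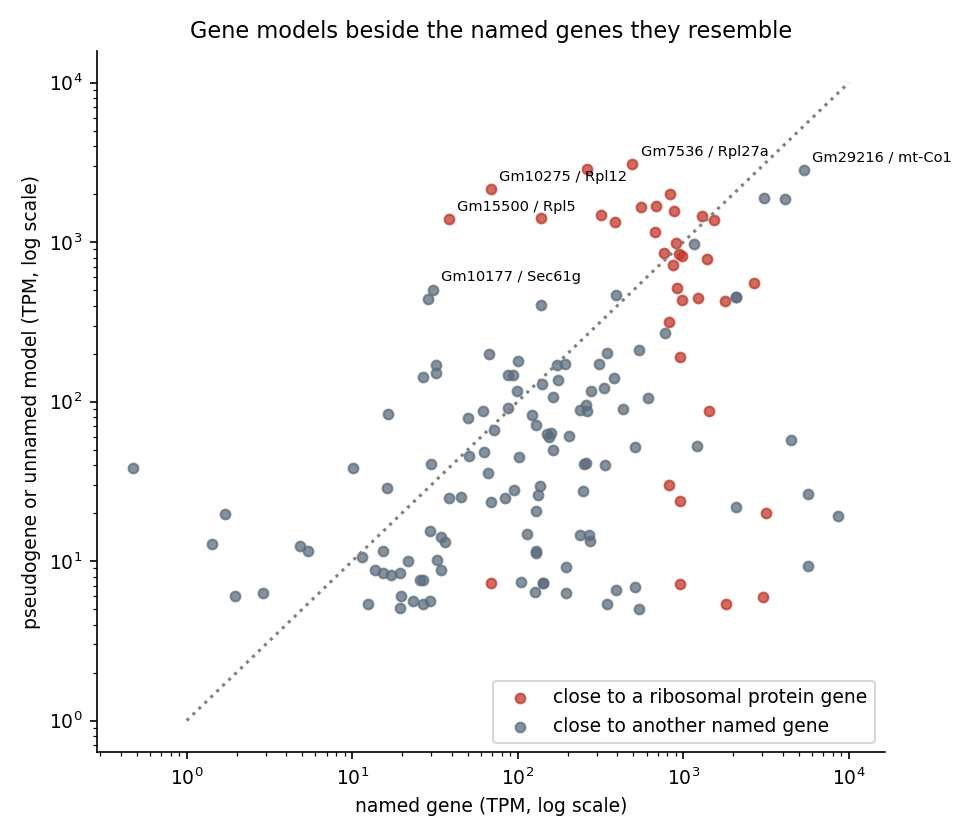
Each point is a pseudogene or unnamed model, its level in the fibroblast library (TPM, log scale) plotted against that of the named gene it resembles (TPM, log scale), with equality as the dotted line. Red points, models close to a ribosomal protein gene, lie above the line in 15 of 35 cases, with Gm15500 and Gm10275 farthest above it among them.

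The starts of ribosomal protein transcripts are known for a C followed by pyrimidines, the terminal oligopyrimidine tract through which growth signals control their translation. In RefSeq promoters of 300 bases (GRCm38), a C and at least 4 further pyrimidines stood exactly at the annotated start in 15 of 64 ribosomal protein genes with a promoter (23.4%). All genes of the table with a promoter held it in 2.68%, and the 127 of the 200 highest with a promoter in 10.2%. The 200 highest include 67 ribosomal protein genes, so their share is not separate from the ribosomal one. Examples are shown with the tract in capitals and the 15 bases before the start in lower case.
Rps27: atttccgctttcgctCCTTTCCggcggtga
Rps15a: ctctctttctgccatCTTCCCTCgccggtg
Rps18: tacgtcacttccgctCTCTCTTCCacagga
Rpl38: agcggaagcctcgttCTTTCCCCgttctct
Rps10: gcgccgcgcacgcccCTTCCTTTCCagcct
They lie at chr3:90213634-90213663 (minus strand), chr7:118116133-118116162 (minus strand), chr17:33955651-33955680 (minus strand), chr11:114668565-114668594 (plus strand) and chr17:27635230-27635259 (minus strand). Allowing the start to move by up to 2 bases raised the ribosomal share to 35.9% and that of all genes to 10.4%. The count thus depends on the positions allowed, and more positions give more matches by construction. Whether annotated starts are misplaced was not tested.

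The rest of the translation class held 3.21% of the TPM. Behind Eef1a1 came Tpt1 at 3055 TPM, a small growth-related protein, then Rack1 at 1576, Eef1b2 at 1402, Eif5a at 1258 and Eef2 at 1143, the factor that moves the ribosome along. The mitochondrial genome, which encodes core subunits of the respiratory chain and ATP synthase, held 4.83% of the TPM in 13 genes. The order ran from mt-Co3 at 7904 TPM over mt-Atp8 (7827), mt-Atp6 (5703), mt-Co2 (5681) and mt-Co1 (5366). At the lower end stood mt-Nd6 at 1165 and mt-Nd5 at 972. The model Gm29216, on chromosome 1, matched mt-Co1 at 99.8% identity and stood at 2845 TPM. The row of mt-Co1 is therefore uncertain, and with close models added the class held 5.12%. The genes mt-Atp8 and mt-Atp6 overlap by 43 bases and mt-Nd4l and mt-Nd4 by 7 on the mitochondrial genome, so reads there belong to both. The nuclear partners of these subunits had a median of 166 TPM over those at 1 TPM or more, against a median of 3027 TPM for the mitochondrial genes. Atp5b, the catalytic subunit of ATP synthase, led them at 1167 TPM, above mt-Nd6 and mt-Nd5.

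One nuclear gene for a mitochondrial protein stood apart. Lars2, the mitochondrial leucyl-tRNA synthetase (chr9:123366927-123462666), stood at 2568 TPM, rank 45. The other 16 mitochondrial tRNA synthetase genes lay between 2.395 and 41.1 TPM, with a median of 12.1, so that Lars2 was 212-fold above the median. It was chosen as an example after its value was seen, and the cause was not tested.

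Actin and its machinery were the next large block. Non-muscle actin and its binding proteins held 3.79% of the TPM and the contractile class 2.76%, together 6.55%. Actg1 and Actb, the actins of all cells, stood at 5070 and 3940 TPM. Acta2, smooth muscle actin, stood at 4751 TPM, between them in rank, and was 23.7-fold above Actg2 at 200.1. The actin genes resemble each other closely in sequence, so the values of single actin genes are uncertain as far as reads were shared. Myl6, a myosin light chain, stood at 3662 TPM, Tagln, an actin-bundling protein of smooth muscle, at 3219, and the tropomyosin genes Tpm1, Tpm2 and Tpm4 at 2918, 1160 and 1134. Caldesmon (Cald1) stood at 1251 TPM and Myl9 at 953. Of the myofibroblast list, 20 of 20 genes stood at 5 TPM or more and 17 at 100, against 10189 and 1650 of all 34295 genes. Low in the list were Myh11, the myosin of differentiated smooth muscle, at 9.95 TPM, Lmod1 at 55.3 and Smtn at 67.4. Acta2 was thus 477-fold above Myh11. Filaments of other kinds were led by Vim, then Tuba1b at 1690, Tuba1a at 1426 and Tubb5 at 1066 TPM.

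Contractile and actin genes are known targets of serum response factor, which binds the CArG box. A perfect CArG box lay within the 250 bases before the start in 6 of 41 contractile genes at 1 TPM or more with a promoter (14.6%), against 1.60% of all genes with one. The search pattern, though not each single box, reads the same way on both strands, so both were searched at once. Examples among actin-related genes with a box are shown with 25 bases on either side where the window allows and the box in capitals.
Actg1: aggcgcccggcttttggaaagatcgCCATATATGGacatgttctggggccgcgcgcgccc
Myl6: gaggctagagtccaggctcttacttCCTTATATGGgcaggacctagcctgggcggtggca
Myl9: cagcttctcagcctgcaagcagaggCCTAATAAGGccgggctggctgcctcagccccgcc
Cnn2: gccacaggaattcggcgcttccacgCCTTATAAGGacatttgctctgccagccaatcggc
The boxes began 90, 50, 161 and 56 bases before the start, and the stretches lie at chr11:120348551-120348610 (minus strand), chr10:128493025-128493084 (minus strand), chr2:156775278-156775337 (plus strand) and chr10:79988519-79988578 (plus strand). A match in letters is not a measured site, and boxes with a changed letter were not counted.

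Secreted products made up 7.83% of the TPM. Of 599 secreted genes in the table, 376 stood at 1 TPM or more and 104 at 100 TPM or more. A few genes carried the block: 16 genes held 50% of it and the 10 highest 39.3%. Their proteins enter the endoplasmic reticulum by a hydrophobic stretch near the start, which is removed later. The first 90 coding bases of 4 secreted genes are shown with the codons of the most hydrophobic window of 8 residues in capitals, and below them Acta2 and Tagln, which stay in the cell and had no such window.
Thbs1: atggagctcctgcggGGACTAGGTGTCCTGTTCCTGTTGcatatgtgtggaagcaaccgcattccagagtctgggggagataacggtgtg
Mgp: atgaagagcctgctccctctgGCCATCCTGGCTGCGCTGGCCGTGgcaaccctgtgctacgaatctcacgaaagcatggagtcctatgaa
Sparc: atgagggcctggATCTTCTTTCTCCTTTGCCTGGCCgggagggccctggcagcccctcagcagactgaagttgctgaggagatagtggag
Bgn: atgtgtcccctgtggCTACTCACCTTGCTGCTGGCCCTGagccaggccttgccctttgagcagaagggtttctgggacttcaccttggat
Acta2: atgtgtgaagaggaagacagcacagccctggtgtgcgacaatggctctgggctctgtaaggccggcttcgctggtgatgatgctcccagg
Tagln: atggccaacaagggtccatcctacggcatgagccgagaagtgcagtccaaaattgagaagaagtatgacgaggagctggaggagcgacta
In GRCm38 these genes lie at chr2:118111876-118127133, chr6:136872435-136875823, chr11:55394500-55423183, chrX:73483602-73495933, chr19:34241090-34255590 and chr9:45929619-45936058, in the order shown.

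Matrix glycoproteins and proteoglycans were the largest secreted class with 3.28% of the TPM. Behind Thbs1, Mgp, Sparc and Spp1 came the proteoglycan Bgn at 2988 TPM, fibronectin (Fn1), which links integrins to the matrix, at 2015, and Fbln2 at 1140. Of the small leucine-rich proteoglycans, collagen-binding relatives of Bgn, 9 of 11 stood at 5 TPM or more, but Bgn alone made up most of their sum. Ogn stood at 229 TPM, Dcn at 104, Aspn at 88.8 and Lum at 58.8, and Kera was listed at 0. Bgn was 28.7-fold above Dcn.

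Collagen genes held 0.979% of the TPM, and 29 of 44 stood at 1 TPM or more. Type I collagen is built of 2 chains from Col1a1 and 1 from Col1a2, and Col1a1 stood 1.44-fold above Col1a2. Col5a2 at 718 and Col5a1 at 554 TPM, of type V, which regulates fibril width, followed Col3a1. Type VI was present with Col6a1 at 449, Col6a2 at 369 and Col6a3 at 239 TPM, and Col12a1 stood at 307. Of the basement membrane list, 18 of 23 stood at 1 TPM or more. Col4a1 stood at 390.1 TPM, Nid1 at 275, Col4a2 at 247.9 and the perlecan gene Hspg2 at 181. Lama3 (0.185 TPM), Lama1 (0.145), Lamc3 (0.121) and Col4a4 (0.0547), chains of other basement membranes, were lowest.

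Enzymes and inhibitors that shape the matrix held 1.11%. Timp2 at 1907 and Timp1 at 1565 TPM inhibit metalloproteinases, while the proteinase genes Mmp14 and Mmp2 stood at 706 and 375. Lox, which crosslinks collagen and elastin, stood at 1625 TPM, the serine protease gene Prss23 at 1601, Timp3 at 628 and Loxl1 at 458. The elastic fibre list was present at 20 of 20 genes at 5 TPM or more. Its scaffold was uneven: Fbln2, Efemp2 (747 TPM) and Fbln5 (635) were high, Fbn1 stood at 153, and elastin itself (Eln) at 39.5. Among secreted inhibitors, cystatin C (Cst3), which blocks cysteine proteases, stood at 1877 TPM, Serpinf1 at 994 and Serpine2 at 578.

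Growth factors, cytokines and chemokines held 0.873% of the TPM, with 130 of 245 genes at 1 TPM or more. Igf2, a fetal growth factor expressed from the paternal allele, led at 901 TPM. Among other members, Mif stood at 722 TPM, the chemokine Cxcl12 at 533, Manf at 489.9 and Csf1, the growth factor of macrophages, at 395. Grn stood at 342 and Ptn at 310.1 TPM. Proteins that bind or modulate growth factors held 0.766%. Ctgf and Cyr61, matricellular proteins known to rise with YAP activity and serum, stood at 1407 and 961 TPM, Fstl1 at 833, Wisp2 at 757, Igfbp4 at 556 and Igfbp7 at 545.

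The surface of the cells was read from 825 genes, of which 433 stood at 1 TPM or more, with 3.04% of the TPM. Cd63, a tetraspanin of endosomes and vesicles, led at 1707 TPM, then Cav1, the coat protein of caveolae, at 1373, B2m at 1333, Bsg at 1158, the integrin subunit Itgb1 at 896 and Emp1 at 874. Of the list of mesenchymal surface proteins, 28 of 30 stood at 1 TPM or more. Cd81 stood at 681 TPM, Thy1 at 642, Ly6a (Sca-1) at 529, Cd9 at 381, Cd248 at 217 and Itga5 at 196. The lowest were Cd34 at 4.57, Nt5e at 3.23, Ngfr at 0.248 and Dpp4 at 0.200 TPM. Receptors for growth factors and cytokines held 0.518%. Il1rl1, a receptor chain for interleukin 33 that is also made as a soluble form, was highest at 743 TPM, rank 219. Tnfrsf12a stood at 576 TPM, Axl, a receptor for Gas6, at 294 and Il6st, the shared chain of interleukin 6 type receptors, at 247. Pdgfrb stood 4.96-fold above Pdgfra at 22.9 TPM.

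Nuclear genes were many and mostly of middle level. Of 1721 nuclear genes, 1364 stood at 1 TPM or more, with 6.24% of the TPM. Their median was 17.5 TPM, against 17.0 for surface genes, 29.6 for secreted genes and 20.4 for all genes at 1 TPM or more. The upper quartile was 49.0 TPM for nuclear and 124 for secreted genes. Here 127 genes were needed for 50% of the block. Ptma, an acidic protein bound to chromatin, led at 1224 TPM, then Cdk4, a kinase that drives entry into S phase, at 881, and the RNA-binding protein gene Hnrnpk at 757.

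**Figure D3:**
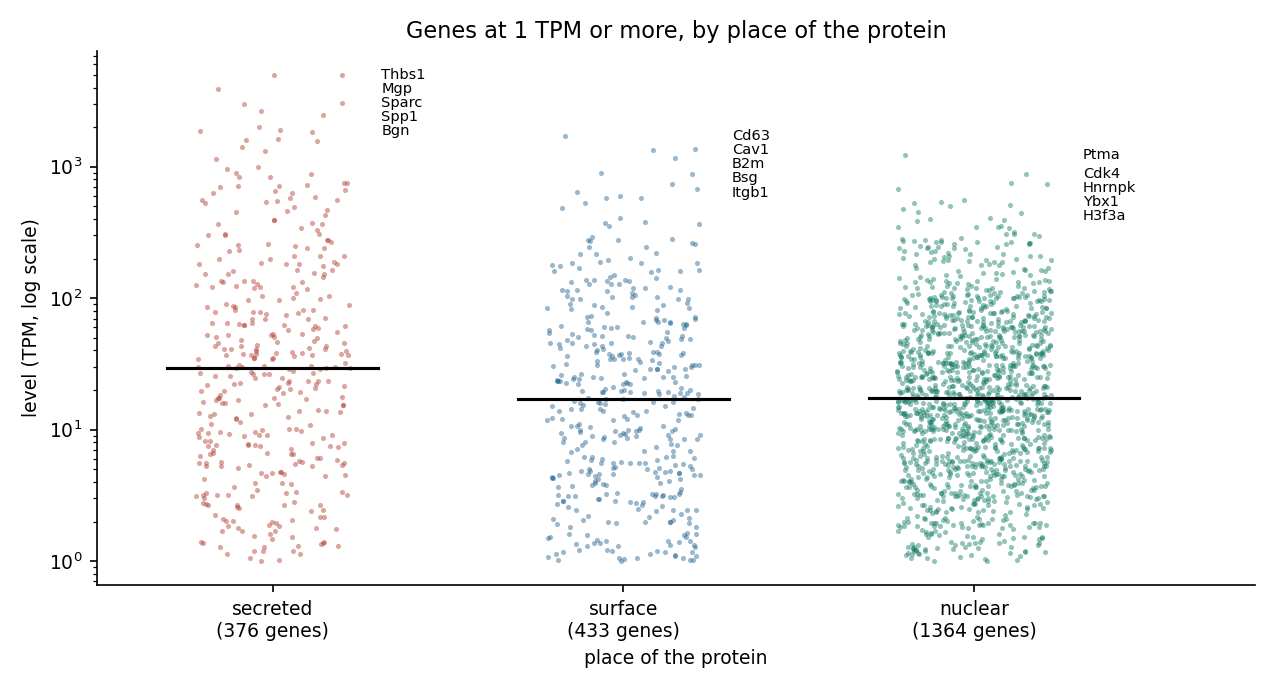
Each point is a gene at 1 TPM or more in the fibroblast library (TPM, log scale), grouped by the place of its protein, with the median as a bar and the 5 highest genes named in order at the right of each group. Secreted genes reach highest, with Thbs1 at 4977 TPM, and their median of 29.6 TPM is above those of surface (17.0) and nuclear genes (17.5).

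Transcription factor genes held 1.69% of the TPM, spread over 737 of 994 genes at 1 TPM or more. Only 20 of them reached 100 TPM, and the highest, Ybx1, which also binds mRNA, stood at 733 TPM, rank 222. Id3, an inhibitor of basic helix-loop-helix factors, stood at 511 TPM, Prrx2 at 384, Edf1 at 306, Ybx3 at 279, Tsc22d1 at 268, Atf4 at 268 and Maged1 at 262. Of the 45 factors listed for mesenchyme, 41 stood at 1 TPM or more and 32 at 5 TPM or more. Prrx2 was 1.69-fold above Prrx1, the 2 homeodomain genes of limb and face mesenchyme. The YAP pathway genes Yap1 (116 TPM), Tead2 (97.9) and Tead1 (89.8), and Snai1 (75.7), Twist2 (71.4) and Tbx15 (68.5), stood lower. Lowest were Foxf2 at 0.491, Meox1 at 0.436, Tcf21 at 0.0808 and Dlx6 at 0.0441 TPM. Among chromatin genes, the architectural proteins Hmga1 (557 TPM) and Hmga2 (242), known from embryonic cells, were among the higher ones.

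The path from ribosome to cell surface was present almost in full. Of 32 genes of the secretory machinery, 31 stood at 5 TPM or more and 26 at 100 TPM or more. Serpinh1, the collagen chaperone, led at 1877 TPM, then the chaperones Calr at 1501, Pdia3 at 1008, P4hb, also a subunit of collagen prolyl hydroxylase, at 922 and Hspa5 at 919.8. The low end held Ssr1 at 52.5 TPM, Sec61g at 30.8 and Spcs1, listed at 0. Sec61g, a channel subunit, has the read-length copies in Gm10177 shown above, and that model stood at 504 TPM. Spcs1, a subunit of the signal peptidase whose partner Spcs2 stood at 147 TPM, had no such model at 5 TPM or more, and an exact 0 can be a failed estimate.

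TPM counts transcripts, and the proteins differ in length. Weighting each gene by its codons, over the 93.1% of the TPM with a coding sequence in GENCODE M21, reordered the classes. Collagens rose from 1.05% to 3.89%, a factor of 3.69, and matrix glycoproteins and proteoglycans from 3.53% to 6.55%. Ribosomal proteins went from 13.7% to 5.51% and S100 proteins, annexins and galectins from 2.64% to 1.05%. All secreted classes together went from 8.05% to 13.9%, although only 53 of 59 binding proteins and modulators of growth factors entered. Those 53 held 0.463% of the TPM before weighting. Thbs1 ranked first by coding bases with 1.54% of them, then Fn1 with 1.32%, Eef1a1 with 1.06% and Col1a1 with 1.01%. Fn1 stood at rank 60 by TPM, and its coding sequence has 2477 codons. Col12a1, at rank 514 by TPM, was among the 30 highest with 3065 codons. This weighting assumes an equal use of every transcript and is not a measure of protein.

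**Figure D4:**
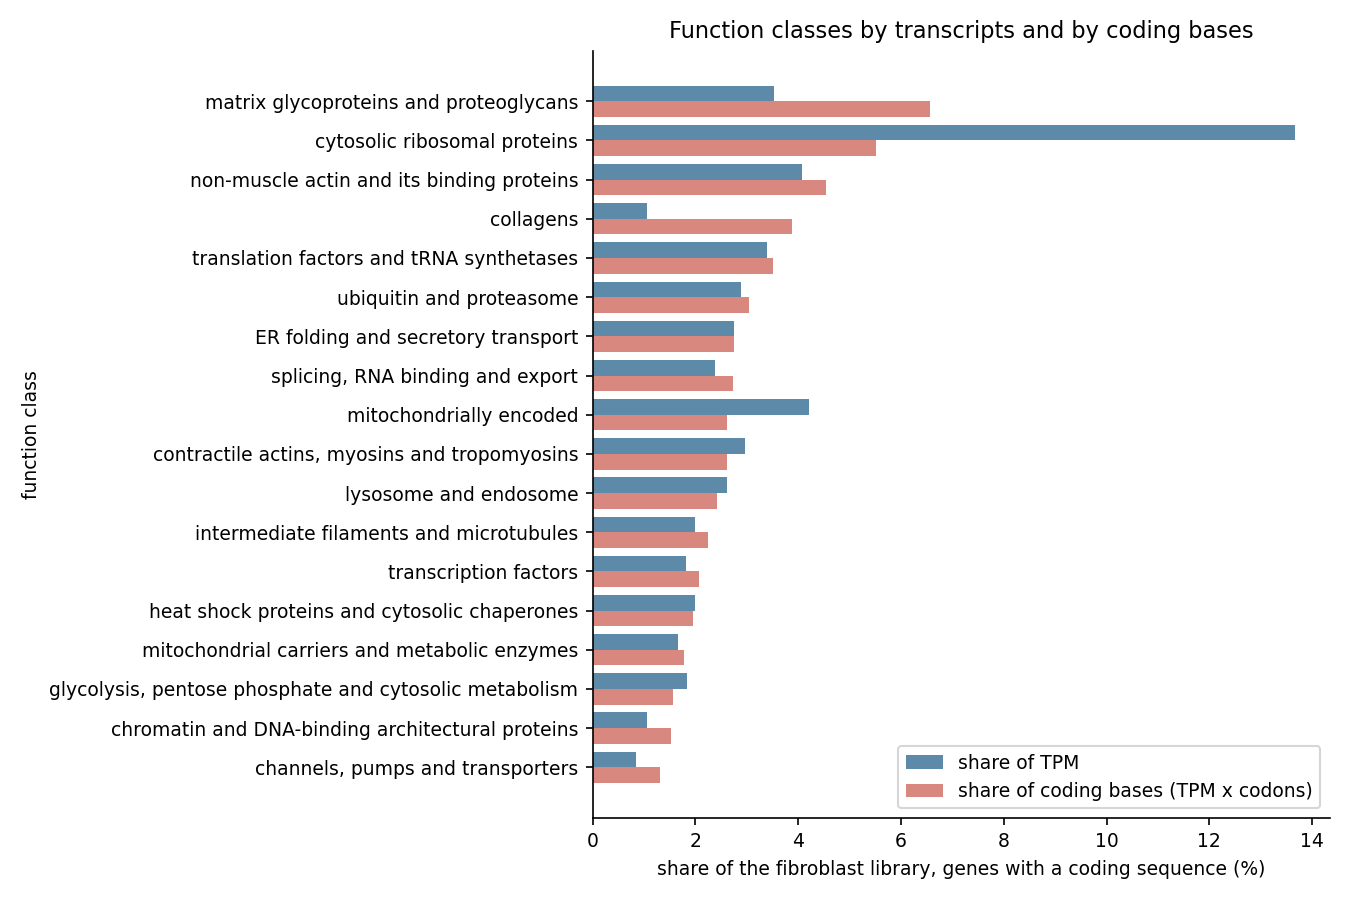
Bars give the share of the fibroblast library held by each of 18 function classes (%), by TPM and by coding bases (TPM times codons), among genes with a coding sequence. Ribosomal proteins lead by TPM with 13.7%, and matrix glycoproteins and proteoglycans lead by coding bases with 6.55%.

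The highest genes encoded short proteins. The median coding sequence was 206 codons among the 174 of the 200 highest genes with one, 457 codons among genes at 1 TPM or more and 393 among all genes. Proteins under 150 codons made up 28.2% of the 200 highest and 7.26% of genes at 1 TPM or more. A hydrophobic start, a window of 8 residues with a mean hydropathy of at least 2.4 within the first 30, was found in 40 of the 174 (22.99%), against 15.7% of genes at 1 TPM or more and 22.98% of all genes. The rule found 92.5% of matrix glycoproteins and proteoglycans, 33 of 44 collagens, none of 87 ribosomal proteins and 1.21% of transcription factors. It missed Col3a1, which is secreted, and took S100a6, which is not known to enter the secretory pathway by such a start. TATAAA between 40 and 20 bases before the start was found in 4.72% of the 200 highest with a promoter, against 1.35% of genes at 1 TPM or more and 3.03% of all genes.

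Most markers of other cell types stood under 1 TPM, as did most genes of the table. In 16 lists for blood, epithelial, nerve, skeletal and other cells, 119 distinct markers were read. Of these, 78 stood under 1 TPM, 28 of them listed at 0, 23 stood at 5 TPM or more and 1 at 100 TPM or more. Of all 34295 genes, 12561 (36.6%) stood at 1 TPM or more, 10189 at 5, 1650 at 100, and 16557 were listed at 0. With 41 of 119 markers at 1 TPM or more, the count at 1 TPM does not set them apart from other genes. The median of the markers was 0.332 TPM. The 1 high gene was Spp1, listed for bone at 3031 TPM, while Bglap was listed at 0 and Ibsp stood at 0.0472 TPM, Alpl at 0.115 and Sp7 at 0.394. Runx2, a factor of bone and cartilage development, stood at 13.1 TPM. The summed level of the bone list without Spp1 was 14.2 TPM. Of 10 macrophage markers, 7 stood at 1 TPM or more, with Lyz2 highest at 19.4 TPM and Cd68 at 9.47. Their sum was 39.1 TPM here and 28362 TPM in the macrophage library. In a bulk library, fewer cells of a type and less RNA per cell cannot be told apart.

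Endothelial markers reached 11.9 TPM with Egfl7, while Cdh5 stood at 0.0236. Of 9 skeletal muscle markers 6 were listed at 0, Myod1, Myf5, Pax7 and Myog among them. Erythroid and pluripotency markers were all under 1 TPM, the highest being Hbb-bs at 0.374 and Nanog at 0.156 TPM. Single genes of some lists stood higher without their partners. The keratinocyte list had Perp at 44.6 TPM with Krt14 at 0 and Krt5 at 0.0444. The epithelial list had Krt19 at 23.2 TPM with Epcam at 0.0479. The neuron list had Stmn2 at 39.7, Map2 at 35.1 and Tubb3 at 20.8 TPM with Rbfox3, Elavl3 and Snap25 at 0.

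Lists of related connective tissues were partly present. The smooth muscle and pericyte list was present at 10 of 10 genes at 1 TPM or more, summing to 8507 TPM, of which Acta2 and Tagln left 537. Its low members were Myh11, Notch3 at 8.53, Des at 6.11 and Rgs5 at 1.17 TPM. Of tendon markers, 5 of 6 stood at 1 TPM or more, with Fmod at 58.3, Scx, the tendon transcription factor, at 13.7 and Tnmd at 9.003 TPM. Of cartilage markers, Col11a1 stood at 53.5, Comp at 30.1, Col2a1 at 6.11 and Sox9 at 5.03 TPM, with Matn1 and Cnmd at 0. Of adipocyte markers, Fabp4 stood at 79.9 and Pparg, the master regulator of fat cells, at 51.6 TPM, while Adipoq stood at 0.229 and Plin1 at 0.0680. Whether these values come from a few cells of such types or from the fibroblasts was not tested.

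**Figure D5:**
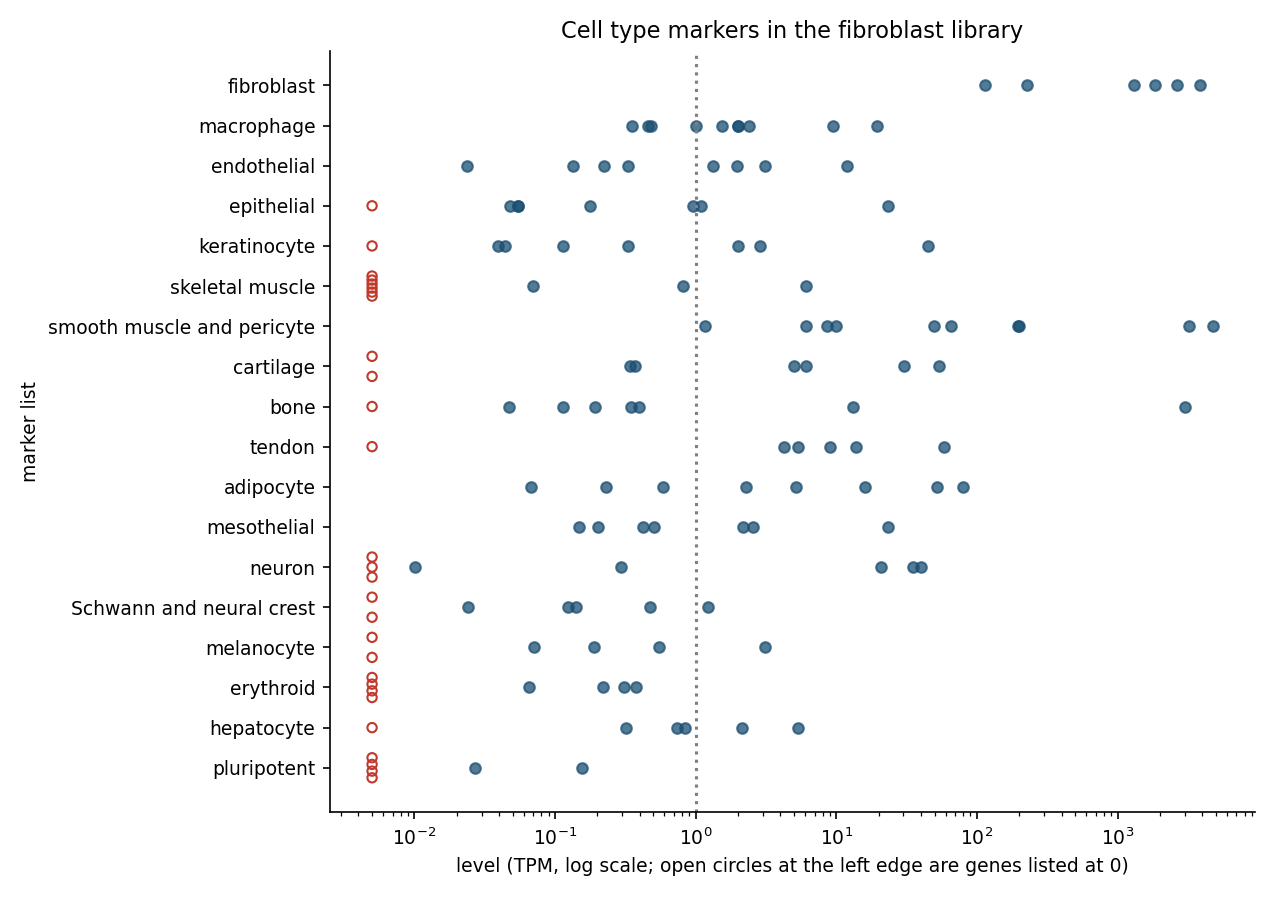
Each point is a marker gene's level in the fibroblast library (TPM, log scale), 1 row for each of 18 marker lists, with open circles at the left edge for genes listed at 0 and a dotted line at 1 TPM. All 6 fibroblast markers lie at 114 TPM or higher, the 10 smooth muscle and pericyte markers span 1.17 to 4751 TPM, and Spp1 is the lone high point of the bone row.

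Genes of cell division and of its arrest were both present. Their counts stand beside 10189 of all 34295 genes at 5 TPM or more. All 28 genes of proliferation stood at 5 TPM or more, from Cdk1, the mitotic kinase, at 296 TPM, Rrm2 at 210.5 and Pcna at 201 down to Mki67 at 28.0, Cdt1 at 22.5, Bub1 at 21.3 and Cenpe at 12.4. Cell cycle inhibitors and targets of p53 stood beside them, at 18 of 18. Cdkn1a (p21) stood at 504 TPM, Bax at 416, Ccng1 at 344, Phlda3 at 308, Cdkn2a, which encodes p16 and p19Arf, at 305 and Cdkn2b at 105.9. Both sets thus had members above 100 TPM in the same RNA, which pools all cells. Of immediate early genes, 17 of 21 stood at 5 TPM or more. Klf6 led at 122.997 TPM, then Jund at 79.8 and Jun at 74.4, while Fos stood at 5.78, Egr3 at 3.71, Atf3 at 2.47 and Fosb at 0.621.

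Imprinted genes, many of them expressed from the allele of 1 parent and known for control of fetal growth, were present at 16 of 16 in the table at 1 TPM or more. After Gnas at 1165 TPM and Igf2 came Grb10 at 316, Mest at 148, Impact at 75.2, Plagl1 at 70.5, Igf2r at 68.4 and Dlk1 at 62.9. The lowest were Peg3 at 11.5, Peg10 at 6.52, Zrsr1 at 4.89 and Nnat at 1.69 TPM. The Y-linked genes Eif2s3y (27.5 TPM), Ddx3y (21.5), Kdm5d (5.63) and Uty (5.575) were present, while Usp9y, Zfy1 and Sry were listed at 0. Of 8 long noncoding genes looked up by symbol, H19, Meg3 and Malat1 among them, 0 had a row, so their levels could not be read.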

How the data were processed

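Gene levels were measured by RNA sequencing in 1 fibroblast and 1 macrophage library. Per the submitters' processing notes, the authors worked with kallisto 0.43.1 and GRCm38; neither notes nor labels name a transcript set or say how transcripts were joined into genes. No unit is named for the deposited values, which were read as TPM from their range and their sum, 999545 in the fibroblast column. Rows sharing a symbol (156 symbols, none of them among the 200 highest genes) were added, and 28 rows with date-like names were kept but not named.

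From these values genes were ranked, placed in 41 function classes by symbol patterns and hand lists, with 3 of the 200 highest placed singly, and summed. No class was found for 25.9% of the TPM (7452 genes at 1 TPM or more). The members, classes and lists were chosen with earlier results of these data known, and the classes were revised after the values were seen. Named genes are the 30 highest, the sort genes, the markers, up to 8 highest members at 5 TPM or more of each class and list with up to 4 lowest of a list, and those next to rank 200; Hmga2, Col6a3, Spcs2 and the models given as examples were chosen after their values were seen, as were those said to be.

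Symbols were matched to GENCODE M21 (93.9% of genes, 98.7% of TPM), which gave coordinates and, for 1 principal transcript a gene, the coding sequence. Models were aligned with blastn 2.17.0. Promoters are RefSeq's on GRCm38, 250 bases before to 50 after the start. The sequence rules were tested on simulated data. With 1 library a group no test was run; a value counts as moved by an alternative where it changes by over 1.5 times. Some genes that the rule names are not reported here.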

Additional observations from a re-analysis of the deposited data

How the results depend on the processing

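Of 199 recomputed values for 39 results, 180 stayed within 1.5 times. The weighting by coding bases and the addition of look-alike models were chosen after seeing the data, as was leaving out single markers. By coding bases the shares were 5.51% for ribosomal proteins, 6.55% for matrix glycoproteins and proteoglycans and 3.89% for collagens. They were 1.05% for S100 proteins, annexins and galectins, and 13.9% for all secreted classes. Mitochondrially encoded genes held 2.61%, but only 9 of the 13 entered, with 4.21% of the TPM of genes with a coding sequence. Without the 10 highest genes, mitochondrially encoded genes held 1.69%. Pseudogenes and unnamed models made up 2% of the 200 highest protein-coding genes, and 1% once look-alike models were added to their named genes. Of the 100 highest genes 11% were mitochondrially encoded and 1% surface genes, and of the 500 highest 2.6% were mitochondrially encoded and 15.6% ribosomal. Of the markers of other cell types, 77 were present at 0.1 TPM and 23 at 5 TPM. The bone list summed to 14.2 TPM without Spp1, and the smooth muscle and pericyte list to 537 TPM without Acta2 and Tagln. With starts free to shift by 2 bases, a pyrimidine start was found in 25.2% of the 200 highest and 35.9% of ribosomal protein genes. These follow from the alternatives' own construction.

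No paired analysis was possible because each group has 1 library and no test was run. TPM keep no depth, so low values cannot be told from absence, and an exact 0 can be a failed estimate. Fragments shared by near-identical genes limit single rows of ribosomal proteins, mt-Co1, actins and their copies.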

Other observations

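Beside the genes described above, some pathway members outside the rule for named genes were read after the values were seen. The limb identity genes Tbx4 and Pitx1, known from the hindlimb, stood at 16.9 and 16.8 TPM, and Tbx5, known from the forelimb, at 7.13 TPM, so genes of both limbs were present in 1 RNA. The monocyte chemokines Ccl7 and Ccl2 stood at 86.02 and 81.6 TPM, while Cxcl1 stood at 7.95. Of the PDGF ligands, Pdgfa stood at 46.5, Pdgfc at 38.5 TPM and Pdgfb at 1.54, in the same RNA, where Pdgfrb stood at 114. Vegfa stood at 64.5, Tgfb1 at 36.5 and Fgf2 at 31.1 TPM. These are values of 1 library with no replicate.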
